A study of Tetranychus cinnabarinus with 8 samples.

Results

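The gene tetur09g03650 is named cystatin (TuCPI-5) in the study's tables and is 1 of the 15764 genes that were listed in at least 1 of the 8 libraries. It was chosen by its measured difference between curcumin and solvent, since the study listed it as higher after curcumin at both 24 h and 48 h. The values for curcumin against solvent are therefore given as a description, with no test. Adult female Tetranychus cinnabarinus of a susceptible strain, labelled as 2-day-old mites and reared on cowpea seedlings, were kept on cowpea leaves that were sprayed with curcumin at 2.64 mg/mL or with solvent alone, which was water with Tween 80 and acetone. By the study's methods this dose of curcumin was its median lethal concentration and only live mites were collected, so the curcumin libraries hold survivors. Each of the 4 groups (solvent and curcumin, at 24 h and at 48 h) had 2 libraries of pooled whole mites, which the study describes as biological replicates from separate experiments and which are called replicate 1 and 2 as in the labels.

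Cystatins are small proteins that bind the active site of papain-family cysteine peptidases, such as cathepsins B and L, and block it reversibly. In spider mites, enzymes of this family are among the main digestive peptidases of the gut, and cystatins are thought to keep such peptidases in check. In mammals several cystatins are secreted into saliva, and the salivary secretion pathway of KEGG includes them.

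The 8 libraries held between 8033325 and 8617973 estimated reads on genes, and 12227 genes passed the filter on low counts and were tested. The reads were mapped to the genome of the sister species T. urticae, and the gene names and lengths are those of that species. In whole mites, fewer cells of a type and less RNA per cell cannot be told apart. Vitellogenin 1 (tetur39g00730), a yolk protein gene of egg-laying females, was listed in all 8 libraries at an RPKM between 1.59 and 23.9, and its values differed between the groups, as given beside the cystatin changes.

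Cystatin was an abundant transcript in every library, and its level was higher in each curcumin library than in any solvent library. RPKM is the number of reads scaled by the length of the gene model and by the reads of the library, and so compares genes as well as libraries. In solvent-treated mites at 24 h the RPKM of cystatin was 377.4 in replicate 1 and 240.5 in replicate 2, from 1775.5 and 1151.9 estimated reads on a gene model of 384 bp. In curcumin-treated mites at 24 h it was 842.9 and 848.1, from 3869.1 and 3800.3 reads. At this time the curcumin libraries were almost equal, and both lay well above the solvent libraries. In solvent-treated mites at 48 h the RPKM was 210.3 and 135.2, from 908.5 and 605.6 reads. In curcumin-treated mites at 48 h it was 381.7 in replicate 1 and 838.5 in replicate 2, from 1759.0 and 3964.6 reads. Replicate 1 of this group thus stood close to the highest solvent library, while replicate 2 was as high as the curcumin libraries at 24 h. Of all listed genes, 0 others had the same estimated reads in every library, while reads shared in part with a near-identical copy were not tested.

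**Figure D1:**
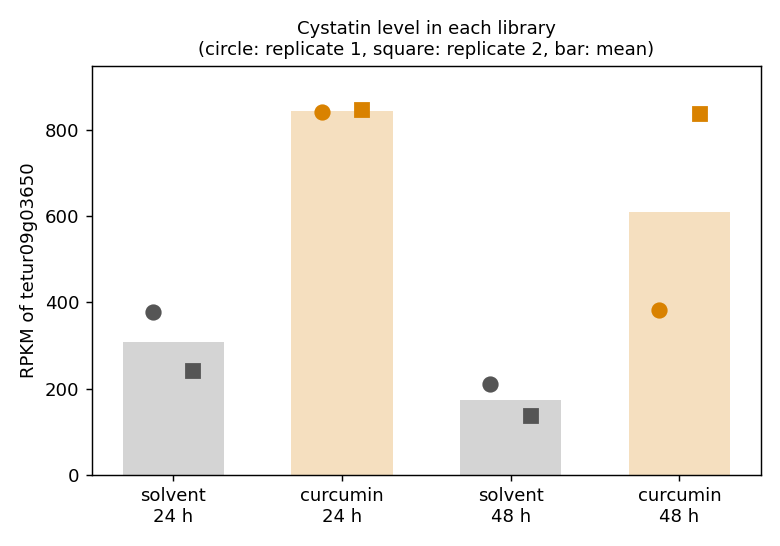
RPKM of the cystatin gene in each of the 8 libraries, with the mean of each group as a bar. The 4 curcumin libraries lie between 381.7 and 848.1 and the 4 solvent libraries between 135.2 and 377.4, so that the margin between the sets is narrow.

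Over both times, the RPKM was 727.8 ± 230.8 (SD, n = 4) in curcumin-treated mites and 240.9 ± 101.2 (SD, n = 4) in solvent-treated mites, a ratio of 3.02. All 4 curcumin libraries lay above all 4 solvent libraries for 1.23% of the 12227 genes tested. The margin for cystatin was small, since the lowest curcumin library had 1.01 times the RPKM of the highest solvent library. It depended on the scale: in CPM after TMM scaling, which is a share of the reads of a library corrected for differences in composition, the lowest curcumin value was 220.0 and the highest solvent value 203.1. In unscaled reads the order of these libraries was turned, with 1759.0 against 1775.5 reads.

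The rank of the gene within a library does not depend on scaling between libraries. By RPKM, cystatin ranked 94 and 91 with curcumin at 24 h, out of 14510 and 14512 genes listed. With curcumin at 48 h it ranked 208 and 84, out of 14326 and 14586 genes. With solvent it ranked 210 and 345 at 24 h and 406 and 600 at 48 h. The gene was therefore within the top 0.648% of listed genes in 3 of the 4 curcumin libraries, and the remaining one, curcumin 48 h replicate 1, had nearly the rank of solvent 24 h replicate 1. Its RPKM was between 20 and 128.1 times the median of the genes listed in the same library. Without division by gene length the gene stood lower, at ranks between 266 and 2312 by estimated reads.

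**Figure D2:**
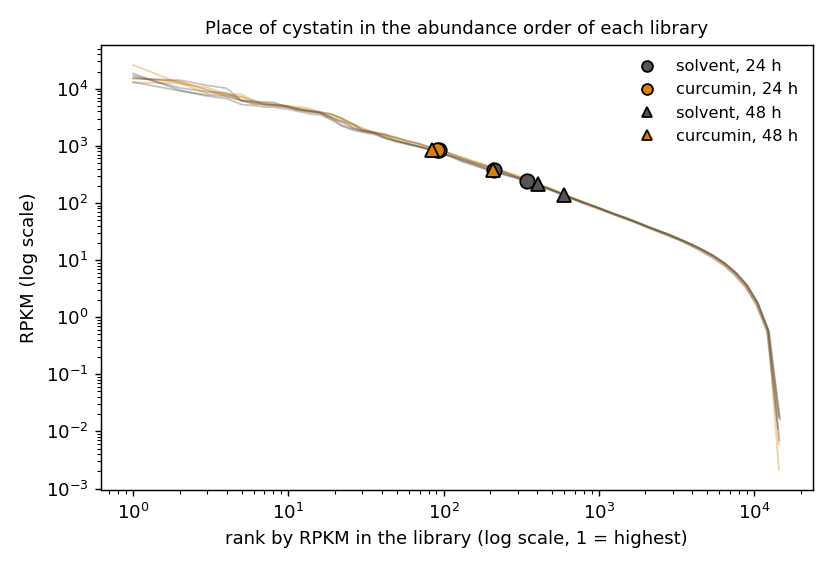
RPKM against rank by RPKM for all listed genes of each library (lines) and for cystatin (symbols), both axes on log scales. Cystatin moves along a curve that is nearly the same in all 8 libraries, from rank 600 in solvent 48 h replicate 2 to rank 84 in curcumin 48 h replicate 2.

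As a share of all reads estimated on genes, cystatin made up 0.0454% and 0.0456% with curcumin at 24 h, and 0.0213% and 0.046% with curcumin at 48 h. With solvent its share was 0.0209% and 0.0136% at 24 h, and 0.0113% and 0.00754% at 48 h. Exact Clopper-Pearson 95% intervals were narrow, for example 0.0203% to 0.0223% in curcumin 48 h replicate 1 and 0.0446% to 0.0475% in replicate 2. These intervals cover counting error only, and they treat each read as an independent molecule. Reads without molecular identifiers are not, so the intervals can be too narrow even for that error. In 3 of the 4 groups the intervals of the replicates did not overlap. The replicates thus differed by more than the counting error of independent reads in all groups except curcumin-treated mites at 24 h.

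At 24 h the question was how far the level in mites given curcumin differed from that with solvent alone. The mean RPKM was 845.5 ± 3.65 (SD, n = 2) with curcumin and 309.0 ± 96.8 (SD, n = 2) with solvent. The fit by edgeR gave a log2 fold change of 1.46 with a standard error of 0.35, or 2.76-fold. Taking each curcumin library against each solvent library, the ratio of RPKM was between 2.23 and 3.53. The fitted value was 1.82 when solvent replicate 1 was left out and 1.18 when solvent replicate 2 was, or 3.54-fold and 2.27-fold. Both curcumin libraries lay above both solvent libraries at 24 h for 20.2% of the genes tested, and 64 of the other 12226 genes tested (0.523%) had a larger change.

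At 48 h the level was also higher with curcumin, but the curcumin replicates were far apart. The mean RPKM was 610.1 ± 323.0 (SD, n = 2) with curcumin and 172.8 ± 53.1 (SD, n = 2) with solvent. The fitted log2 fold change was 1.81 (standard error 0.36), or 3.5-fold. The ratio of RPKM for each pair of libraries was between 1.81 and 6.2, a wider range than at 24 h. When curcumin replicate 2 was left out the fitted value was 1.18, or 2.26-fold, and when curcumin replicate 1 was left out it was 2.25, or 4.74-fold. Leaving out solvent replicate 1 or 2 gave 2.22 and 1.49. Both curcumin libraries lay above both solvent libraries at 48 h for 15.8% of the genes tested, and 79 of the other genes (0.646%) had a larger change.

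Averaged over both times, the log2 fold change was 1.63 (standard error 0.25), or 3.11-fold, and 40 other genes (0.327%) had a larger average. With each of the 8 libraries left out in turn it was between 1.32 and 1.86. Among the genes tested, 20 (0.164%) had a fitted log2 fold change of at least 1 at both times, and cystatin had the highest mean RPKM of these. Of the 20 genes, 6 had all 4 curcumin libraries above all 4 solvent libraries, and cystatin was 1 of the 6. The other 19 had a mean RPKM of 5.88 or less, against 484.3 for cystatin.

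Few abundant genes had so large a change. Of 785 genes longer than 200 bp with a mean RPKM of at least 100, 1 had a larger change than cystatin at 24 h, 0 at 48 h and 0 over both times. Without the limit on length there were 814 such genes, and 3 exceeded cystatin at 48 h and 3 over both times. The gene with the larger change at 24 h, named after its value was seen, was tetur06g03770, with a log2 fold change of 2.27 and a pooled SD between replicates of 2.04 on the log2(RPKM + 1) scale. The limit on length, which was set after the values were seen, leaves out 3 gene models of 132 bp (tetur03g08450, tetur03g08460 and tetur03g08470) that had a larger change at 48 h and over both times. Among 279 genes whose mean RPKM was within 2-fold of that of cystatin, the median log2 fold change was 0.13 at 24 h and -0.02 at 48 h. Of these genes, 1 exceeded cystatin at 24 h and 0 at 48 h.

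**Figure D3:**
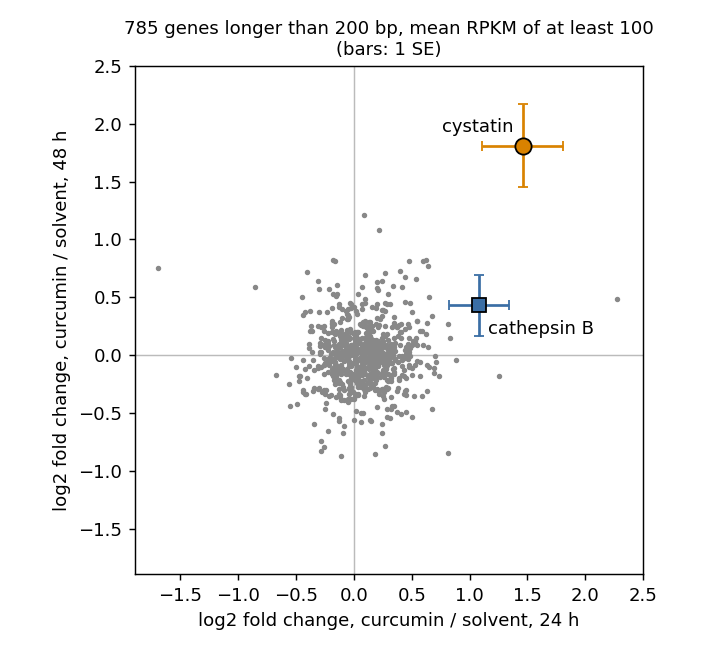
Fitted log2 fold change of curcumin over solvent at 24 h (horizontal) and 48 h (vertical) for 785 genes longer than 200 bp with a mean RPKM of at least 100, with bars of 1 standard error. Cystatin, at 1.46 and 1.81, lies apart from the cloud of genes shown, and cathepsin B, at 1.08 and 0.43, lies at its edge. The axes are the contrasts that chose cystatin. The limit on length, set after the values were seen, leaves out 3 abundant genes with a larger change at 48 h.

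The curcumin libraries at 48 h differed from the others in the shortest gene model they listed, which was 132 and 131 bp, against 140 to 145 bp in the other 6 libraries. The gene model of cystatin is far longer. Among 642 genes tested with a length within 20% of it, between 308 and 460 bp, the median log2 fold change was -0.17 at 24 h and -0.02 at 48 h. Of these, 13 exceeded cystatin at 24 h and 15 at 48 h. The part of this difference between libraries in the cystatin value was not tested.

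Vitellogenin 1, a yolk protein gene, also differed between the groups. Its mean RPKM was 7.46, near the median of the listed genes, which was between 6.16 and 6.75 in the libraries. Its level was therefore not taken as a measure of egg laying. The study listed this gene too at both times, so its values for curcumin against solvent are given as a description, with no test. At 24 h its RPKM was 2.02 and 1.59 with solvent and 6.21 and 9.66 with curcumin, a log2 fold change of 2.13 (standard error 0.43). At 48 h it was 23.9 and 10.9 with solvent and 2.69 and 2.69 with curcumin, a log2 fold change of -2.71 (standard error 0.40). From 24 h to 48 h in solvent it rose by 3.32 on the log2 scale. The same solvent libraries entered the contrasts that chose this gene, so this value too is a description, with no test. Vitellogenin 1 was thus on the same side as cystatin at 24 h, with higher values in curcumin, and on the opposite side at 48 h and over time in solvent. Its part in the cystatin values was not tested.

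Time was the comparison that did not enter the choice of the gene, although it uses the same libraries. In solvent-treated mites the RPKM of cystatin was lower at 48 h than at 24 h and the libraries did not overlap, which was so for 24.9% of the genes tested. The log2 fold change from 24 h to 48 h was -0.78 (standard error 0.35) with a 95% interval of -1.57 to 0.02. It did not pass an FDR of 0.05 (adjusted p = 0.507 by edgeR's quasi-likelihood test and the Benjamini-Hochberg method). By this test 23 genes, or 0.188% of those tested, passed at this FDR between the times in solvent. The value was -0.42 or -1.06 when replicate 1 or 2 at 24 h was left out, and -1.19 or -0.45 when replicate 1 or 2 at 48 h was. Over 15 alternative settings the adjusted p by edgeR, DESeq2 or limma was between 0.394 and 0.889.

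In curcumin-treated mites the log2 fold change from 24 h to 48 h was -0.43 (standard error 0.34), with a 95% interval of -1.20 to 0.34 and an adjusted p of 0.646 by the same edgeR test. Here 52 genes, or 0.425%, passed an FDR of 0.05. The RPKM of both libraries at 48 h lay below both at 24 h, by 0.995 in the closest pair, while the TMM-scaled values overlapped. For 27.2% of the genes tested the RPKM of both curcumin libraries at 48 h was below both at 24 h. The value rested on curcumin 48 h replicate 1: when it was left out the log2 fold change was 0.00, and when replicate 2 was left out it was -1.07. Over the same 15 alternatives the adjusted p by edgeR, DESeq2 or limma was between 0.222 and 0.999.

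How far the change at 48 h exceeded that at 24 h is a value made of those that chose the gene, so it is given as a description, with no test. The change of cystatin at 48 h was 0.34 larger on the log2 scale than at 24 h, with a standard error of 0.49. With 1 library left out the difference was between -0.29, when curcumin 48 h replicate 2 was left out, and 0.78, when replicate 1 was. These libraries therefore do not fix which of the changes was the larger, and they do not show that the changes were alike.

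**Figure D4:**
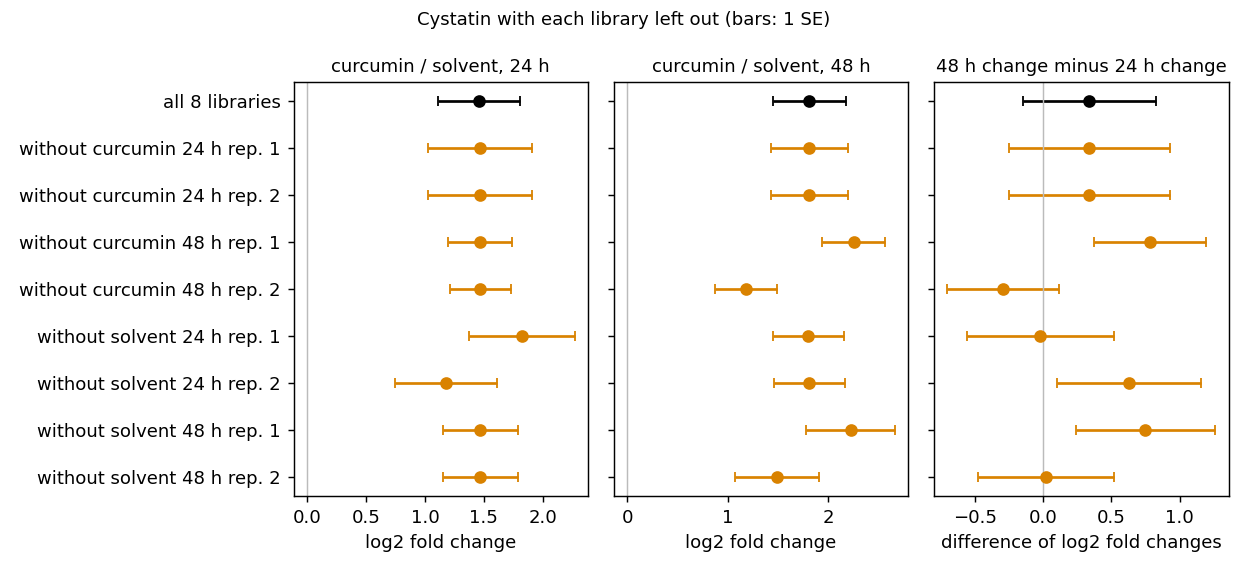
Fitted log2 fold change of cystatin with all 8 libraries (black) and with each library left out in turn, at 24 h, at 48 h and for the difference between the times, with bars of 1 standard error. The values stay between 1.18 and 1.82 at 24 h and between 1.18 and 2.25 at 48 h, and the difference lies on either side of 0.

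Ordered by mean RPKM, the groups were curcumin at 24 h (845.5), curcumin at 48 h (610.1), solvent at 24 h (309.0) and solvent at 48 h (172.8). The curcumin groups were not distinguished by the test, and neither were the solvent groups. Curcumin at 48 h and solvent at 24 h are next to each other in this order, and their means differed by 301.1 RPKM, less than the SD of 323.0 in the former.

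The spread between replicates of cystatin was large for a gene of its level. The pooled SD between replicates was 0.51 on the log2(RPKM + 1) scale, against a median of 0.17 for 279 genes with a mean RPKM within 2-fold. Of these genes, 6 had a larger SD. The biological coefficient of variation that edgeR estimated for the gene was 0.243, against 0.142 for the common value over all genes, and its dispersion was at the 98.2th percentile of the genes of like level. The spread was uneven among the groups. The higher replicate had 1.57 times the RPKM of the lower in solvent-treated mites at 24 h and 1.56 times at 48 h. In curcumin-treated mites it had 1.01 times at 24 h and 2.2 times at 48 h. Of 278 genes of like level listed in all libraries, 0 had a larger replicate ratio than cystatin with curcumin at 48 h and 2 had one with solvent at 24 h. With curcumin at 24 h, 270 of the 278 genes had a larger ratio, and the cystatin replicates were closer than those of most genes of like level.

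**Figure D5:**
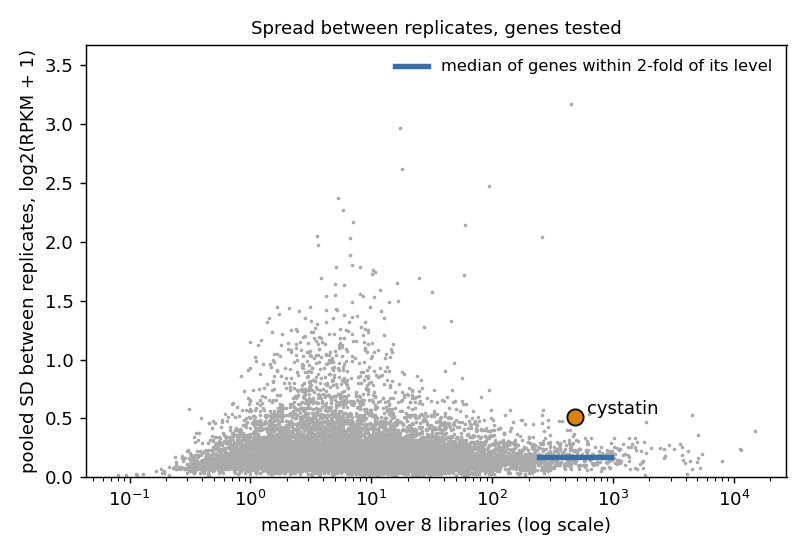
Pooled SD between replicates on the log2(RPKM + 1) scale against mean RPKM (log scale) for the genes tested, with cystatin as the large symbol at 0.51. The horizontal bar marks the median of 0.17 over 279 genes within 2-fold of its level.

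The study's tables name 1 papain-family peptidase, cathepsin B (TuPap-13, tetur08g05030), which the study listed as higher at 24 h and which belongs to the class of enzymes that cystatins inhibit. Its gene model of 1232 bp had an RPKM of 446.6 and 399.6 with solvent and 880.9 and 894.2 with curcumin at 24 h. At 48 h it was 620.6 and 341.6 with solvent and 659.1 and 638.1 with curcumin. As for cystatin, all 4 curcumin libraries lay above all 4 solvent libraries by a narrow margin, 638.1 against 620.6. Such an order was found for 1.23% of the genes tested, and the study had listed both genes for higher values with curcumin. The log2 fold change was 1.08 (standard error 0.26) at 24 h, a value that chose this gene too, and 0.43 (standard error 0.26) at 48 h. The latter did not pass an FDR of 0.05 (adjusted p = 0.74 by edgeR, and between 0.0805 and 0.974 over the alternatives by edgeR, DESeq2 and limma). The value at 48 h was below that at 24 h, where the gene had been listed for its high value, so no comparison of the times is drawn for cathepsin B.

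Cystatin and cathepsin B transcripts were both abundant, and the ratio between them varied among the libraries. The RPKM of cystatin was between 0.339 and 0.845 times that of cathepsin B in the solvent libraries and between 0.579 and 1.31 times in the curcumin libraries, ranges that overlap. Cathepsin B ranked 125 and cystatin 154 by mean RPKM over the 8 libraries. Across the 8 libraries the levels of the 2 genes on the log2(RPKM + 1) scale had a Pearson's r of 0.82 and a Spearman's rho of 0.90, and 66 of 5838 genes compared had a higher r with cystatin. The study listed both genes as higher with curcumin in these libraries, so this correlation is in part set by that choice. Shared regulation was not tested.

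The other genes that the study placed in the pathways of these proteins were scarce by comparison. Calmodulin (tetur04g01900), a calcium-binding regulator that the study listed for salivary secretion beside cystatin, had an RPKM of 12 and 3.27 with solvent and 0 and 21.4 with curcumin at 24 h. At 48 h it was 0.144 and 0 with solvent and 14.5 and 3.55 with curcumin, so the libraries of 1 group differed more than the groups at 24 h. The Der f 2 allergen gene (tetur140g00020) was listed with cathepsin B for the lysosome and is related to a lipid-binding allergen of dust mites. Its fitted log2 fold change with curcumin was -0.73 (standard error 0.32) at 24 h and -2.01 (standard error 0.38) at 48 h. Its RPKM was 17.7 and 15.3 with solvent and 7.24 and 12.5 with curcumin at 24 h, and 12.3 and 11 with solvent and 3.54 and 2.17 with curcumin at 48 h. Of cathepsin B, calmodulin and the Der f 2 allergen gene, 0 of 3 passed an FDR of 0.05 by edgeR at 24 h, where 0% of all genes passed, and 0 of 3 at 48 h, where 0.18% did. At an unadjusted p under 0.05 these tests gave 903 (7.39%) and 959 (7.84%) of all genes. The unadjusted p by edgeR at 24 h was 0.00222 for cathepsin B, 0.705 for calmodulin and 0.0484 for the Der f 2 allergen gene. At 48 h the same test gave 0.129, 0.0316 and 0.000424. DESeq2 passed 39 (0.319%) and 89 (0.728%) of all genes, and 1 of the 3 at each time, cathepsin B at 24 h (adjusted p = 0.000272) and the Der f 2 allergen gene at 48 h (adjusted p = 0.0143). Their median log2 fold change was 0.48 at 24 h and 0.43 at 48 h, against -0.01 and 0.00 over all genes tested. The study chose these genes on the same libraries, so the counts are not independent evidence of a direction. Other members of the cystatin family are not named in the sources used here.

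Among the 17 genes that the study listed at both times, cystatin was the one gene with a higher fitted level after curcumin at both. Of the other genes, 7 were lower at both times and 9 had opposite directions. It was also the most abundant of the 17, with a mean RPKM of 484.3 against 71.3 or less for the others. These directions are part of how the list was made.

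The genes whose levels followed cystatin most closely over the 8 libraries, among 5838 genes listed in all of them with a mean RPKM of at least 10 and a length over 200 bp, were tetur02g11420, tetur03g08070, tetur10g04920, tetur37g00810 and tetur06g05070. Their Pearson's r on the log2(RPKM + 1) scale was between 0.94 and 0.96 over 8 points that share the same libraries and groups. All 5 varied far less than cystatin. tetur02g11420 had an RPKM between 116.0 and 169.0, and the highest library of the 5 genes had between 1.37 and 1.84 times the lowest, while for cystatin the ratio was 6.27. tetur06g05070 differed the most with curcumin among them, by a log2 of 0.59 at 24 h and 0.57 at 48 h. It was picked for its likeness to a gene chosen by this difference, so these values are a description, with no test. The SD of cystatin over the 8 libraries was 1.02 on this scale, against a median of 0.18, and 10 of the 5838 genes varied more.

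The gene models with the nearest identifiers that were listed in all libraries did not share the pattern of cystatin. tetur09g03620 had an RPKM between 9179.9 and 15289.7, and its log2 fold change with curcumin was 0.59 at 24 h and -0.35 at 48 h. tetur09g03670 had an RPKM between 215.3 and 565.7, and its values were -0.00 and -0.56. Neither gene passed an FDR of 0.05 at either time (adjusted p between 0.589 and 0.999 by edgeR). Of all genes tested, 0% passed at 24 h and 0.18% at 48 h, so the lack of a call does not set these genes apart. The genes next to cystatin in the order of mean RPKM were tetur04g06010 (485.3) and tetur07g02770 (482.5). Their log2 fold change with curcumin was 0.33 and 0.17 at 24 h and -0.44 and 0.01 at 48 h, against 1.46 and 1.81 for cystatin.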

How the data were processed

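RNA-Seq was run on 8 libraries of live adult mites, 2 for each treatment and time, grouped by their labels. By the study's methods, the authors filtered single-end Ion Proton reads, removed duplicate sequences and aligned what was left with T-Map to the genome of T. urticae. For each library the authors deposited for each gene the expected count (estimated reads, not whole and not scaled) and the RPKM, scaled by gene length and reads. Which tool estimated the reads is not given here. Removal of duplicates can lower the values of abundant genes.

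Rounded reads were filtered with filterByExpr, scaled by TMM and fitted over all 8 libraries as 4 groups by the robust quasi-likelihood method (edgeR 4.0.16, R 4.3.3). P-values of the 12227 genes left were adjusted together (Benjamini-Hochberg, FDR of 0.05). Standard errors came from the F statistic. Genes missing from a list were set to 0. Alternatives were DESeq2 1.42.0, library size only, no filter, the 4 libraries of a contrast, limma 3.58.1 on log2(RPKM + 1) and log2(RPKM + 0.1) for genes of mean RPKM 0.5 or more, a block for the replicate number, and each library left out. The tests were first tried on simulated data in which all genes had the same dispersion, lower than that estimated for cystatin. Other values used Python 3.11.15, pandas 2.3.3, numpy 2.4.6 and scipy 1.17.1.

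The gene and the lists were chosen with earlier results of these data known. Named genes were cystatin, the genes of the study's salivary secretion and lysosome pathways, vitellogenin 1, the 5 genes most like cystatin and its neighbours by identifier and by mean RPKM. No annotation of other cystatins or peptidases and no sequence was used here.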

Additional observations from a re-analysis of the deposited data

How the results depend on the processing

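For cystatin, the 7 settings other than left-out libraries gave a log2 fold change between 1.40 and 1.49 at 24 h and between 1.74 and 1.84 at 48 h, and 6 settings gave between 1.61 and 1.65 over both times. With each library left out, the values lay between 1.18 and 1.82 at 24 h, between 1.18 and 2.25 at 48 h and between 1.32 and 1.86 over both times. The tests over time in solvent and in curcumin passed an FDR of 0.05 under no alternative. The value over time was between -1.19 and -0.42 in solvent with a library left out, and between -1.07 and 0.00 in curcumin, where the sign turned when curcumin 48 h replicate 1 was left out (0.00). The difference between the times was between -0.29 and 0.78, and its sign turned when curcumin 48 h replicate 2 (-0.29) or solvent 24 h replicate 1 (-0.02) was left out.

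The median rank of cystatin over the libraries was 209.0 by RPKM and 670.5 by estimated reads. Among the 3 pathway genes, which the study chose on these libraries, DESeq2 passed 1 at 24 h and 1 at 48 h where edgeR passed 0. Over all genes, DESeq2 passed 89 at 48 h, 122 over time in solvent and 197 over time in curcumin, against 22, 23 and 52 by edgeR, and limma on log2(RPKM + 1) passed 32, 1 and 32. Of the 5 genes most like cystatin, 4 remained among the top 5 by TMM-scaled counts and 2 had a Spearman's rho at or above the fifth highest.

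With the replicate number as a block, the log2 fold change of cystatin was 1.47 at 24 h and 1.83 at 48 h, the values over time were -0.78 and -0.42 and the difference between the times was 0.36. It changed no call of cystatin. The numbers were not taken to pair the libraries: the correlation of deviations between same-numbered libraries was between -0.10 and 0.16 over 6 pairs of groups, above 0.1 in 2. With 2 libraries a group, the spread of this gene rather than its depth limits the precision.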
